A study of Homo sapiens with 8 samples.

Results

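The antigen processing and presentation genes are 10 genes out of 18244 measured: B2M, HLA-E, HLA-F, TAP1, TAP2, TAPBP, PSMB8, PSMB9, CD74 and CD274. A probe set was counted for a gene if the array annotation gave it that single symbol, and each gene is represented by its probe set with the highest mean over the 8 arrays. Of the 10 genes, 9 exceeded the array median on at least 2 arrays and were tested among 11926 genes. CD274 exceeded it on 1 array and is given as values only. CD74 exceeded it on 5 arrays, the 4 HCC827 arrays and 1 A549 array, so HCC827 alone was enough to let it into the test.

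Almost every nucleated cell displays peptides of its own proteins on class I molecules. The proteasome cuts the proteins, the TAP transporter carries the peptides into the endoplasmic reticulum, and tapasin holds the waiting class I molecule at the transporter until a peptide fits. Interferon-gamma induces most of these genes together and swaps catalytic proteasome subunits for the immunoproteasome subunits. Class II molecules, chaperoned by CD74, mainly serve professional antigen-presenting cells but also occur on lung epithelium, and CD274 (PD-L1) restrains T cells that recognise the presented peptide.

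The arrays hold 2 human lung adenocarcinoma cell lines, HCC827, whose EGFR carries an activating mutation, and A549, whose EGFR does not. Each line was grown in 3D on a collagen scaffold (14 days, from 100000 cells) or in 2D (7 days, from 200000 cells), and each culture received 1 µM gefitinib, an EGFR kinase inhibitor, or none. In 3D the drug was present from day 11. The 2D start was read as day 4 from a sentence that also names 3D, and its length there is not stated. Each of the 8 combinations had 1 array: HCC827 in 3D with gefitinib and as control, HCC827 in 2D likewise, then A549 in both cultures in the same way. Each line is a single established cell line, so the line comparison sets 1 line against 1 other.

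Values are the deposited log2 signals after robust multi-array averaging (RMA), and array medians lay between 7.27 and 7.34. Without replicates, standard errors (SE, ±) and p-values come from the limma fit over all 11926 genes. Its residual is the change of the gefitinib difference between the cultures of a line, not replicate scatter. A difference passed at a Benjamini-Hochberg adjusted p under 0.05. The HCC827 2D pair ran against its labels: DUSP6 and ETV5, which ERK signalling induces, were 3.64 and 2.52 higher in the array labelled gefitinib than in the array labelled control, whereas in 3D they differed by -3.32 and -1.79. Line and culture differences average both arrays of a pair, so their estimates do not depend on which is which, but their errors contain this opposition. Culture came with a different RNA kit, and the actin 3' minus 5' signal was 2.10 ± 0.47 in the 4 3D arrays against -0.10 ± 0.04 in the 4 2D arrays (SD; two-sided exact permutation p = 0.0286, adjusted over 2 control genes 0.0286, the smallest that 70 splits allow). Within 3D it was 2.64 and 2.34 in HCC827 (gefitinib, then control) against 1.74 and 1.67 in A549, and the GAPDH signal 1.57 and 0.97 against 0.54 and 0.55. Of 14 immune cell markers, 8 were below the array median on every array, and the leukocyte antigen PTPRC lay between 5.93 and 6.11. Others went the other way, with CD68 between 8.51 and 10.16 and TYROBP between 8.28 and 8.62. CD14 and LYZ were below the array median on all HCC827 arrays, but CD14 lay between 8.12 and 8.30 in A549. The mean of the 14 markers was 7.00 to 7.09 in HCC827 3D and 6.98 to 7.02 in HCC827 2D. In A549 it was 7.25 to 7.31 in 3D and 7.15 to 7.19 in 2D. In such bulk samples fewer expressing cells and less RNA per cell cannot be told apart.

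Of the 10 genes, 7 lie on chromosome 6, and in RefSeq (GRCh38.p14) TAP2, PSMB8, TAP1 and PSMB9 follow one another there, with 1 noncoding gene, PSMB8-AS1, between PSMB8 and TAP1. TAP1 and PSMB9 start head to head, and their promoter windows share 13 bases. The windows of 300 bases (250 before to 50 after the RefSeq start, 5′ to 3′ on the gene's strand) are printed for the class I genes that passed between the lines and for CD274. Capitals mark matches to an interferon-stimulated response element, GAAA, any NN and GAAA in a row on either strand, or to a gamma-activated site, TTCNNNGAA. Overlapping matches run together.
TAP1 (chr6:32853655-32853954, minus strand): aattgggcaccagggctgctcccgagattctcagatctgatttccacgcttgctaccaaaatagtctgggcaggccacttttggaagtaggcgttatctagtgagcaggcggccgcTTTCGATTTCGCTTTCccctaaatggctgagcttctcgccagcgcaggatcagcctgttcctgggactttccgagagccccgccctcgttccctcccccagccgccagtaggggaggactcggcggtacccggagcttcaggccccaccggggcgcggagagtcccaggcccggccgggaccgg
PSMB9 (chr6:32853942-32854241, plus strand): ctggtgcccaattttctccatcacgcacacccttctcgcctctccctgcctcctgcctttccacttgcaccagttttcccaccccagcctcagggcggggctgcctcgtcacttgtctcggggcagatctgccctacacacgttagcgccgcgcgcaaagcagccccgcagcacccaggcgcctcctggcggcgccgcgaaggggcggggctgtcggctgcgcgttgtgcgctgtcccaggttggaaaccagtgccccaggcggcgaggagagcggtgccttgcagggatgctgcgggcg
TAP2 (chr6:32838690-32838989, minus strand): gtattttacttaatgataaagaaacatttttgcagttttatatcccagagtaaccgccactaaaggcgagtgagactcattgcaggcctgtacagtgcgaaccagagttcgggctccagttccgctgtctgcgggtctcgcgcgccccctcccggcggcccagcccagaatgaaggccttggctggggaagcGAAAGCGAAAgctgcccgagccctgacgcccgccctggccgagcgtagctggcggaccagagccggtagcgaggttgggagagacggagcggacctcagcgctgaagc
PSMB8 (chr6:32843998-32844297, minus strand): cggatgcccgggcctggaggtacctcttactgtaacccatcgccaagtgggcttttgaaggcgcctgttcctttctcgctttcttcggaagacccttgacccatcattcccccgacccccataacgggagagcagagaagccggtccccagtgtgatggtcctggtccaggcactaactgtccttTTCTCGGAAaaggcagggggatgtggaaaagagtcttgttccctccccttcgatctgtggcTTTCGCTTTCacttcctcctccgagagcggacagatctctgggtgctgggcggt
HLA-F (chr6:29723184-29723483, plus strand): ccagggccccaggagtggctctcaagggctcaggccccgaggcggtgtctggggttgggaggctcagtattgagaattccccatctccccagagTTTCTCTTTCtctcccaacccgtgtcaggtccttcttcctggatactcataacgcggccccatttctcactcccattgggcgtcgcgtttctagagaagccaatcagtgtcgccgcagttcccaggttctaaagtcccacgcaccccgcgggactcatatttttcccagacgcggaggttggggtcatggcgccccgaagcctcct
B2M (chr15:44711267-44711566, plus strand): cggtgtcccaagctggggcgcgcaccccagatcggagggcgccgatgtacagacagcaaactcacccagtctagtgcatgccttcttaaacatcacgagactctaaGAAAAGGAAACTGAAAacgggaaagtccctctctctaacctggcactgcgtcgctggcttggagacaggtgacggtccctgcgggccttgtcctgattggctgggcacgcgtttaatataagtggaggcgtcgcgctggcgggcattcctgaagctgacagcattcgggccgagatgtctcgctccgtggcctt
CD274 (chr9:5450292-5450591, plus strand): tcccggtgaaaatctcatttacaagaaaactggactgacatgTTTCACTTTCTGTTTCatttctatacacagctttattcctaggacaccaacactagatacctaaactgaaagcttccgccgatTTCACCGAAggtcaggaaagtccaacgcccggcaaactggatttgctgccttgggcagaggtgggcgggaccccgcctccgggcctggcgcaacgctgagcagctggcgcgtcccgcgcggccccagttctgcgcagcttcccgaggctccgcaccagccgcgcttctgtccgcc
The PSMB8 window printed is that of its second annotated start; the window at its first start held neither motif. RefSeq gave 9 of the genes 11 windows, and 7 of the 11 held the response element letters, 1 each of B2M, HLA-F, TAP1, TAP2, TAPBP, PSMB8 and CD274, against 3.57% of all 35116 windows. TTCNNNGAA was in 3 of the 11, of TAP1, PSMB8 and CD274, against 7.66% of all windows. The TAP1 match to it lay in the window of another annotated start, which is not printed. PSMB9 and CD74 held neither in these windows. A match is a description of the letters, and no binding was measured.

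The lines were compared first. HCC827 stood above A549 in the immunoproteasome subunits PSMB8 and PSMB9, the TAP2 subunit of the transporter, and the nonclassical class I molecule HLA-F, each by more than 2-fold. Smaller differences in the same direction passed for the class I light chain B2M, for TAP1 and for CD74. Of 9 tested genes 7 were higher in HCC827 and 0 lower, against 22% of all tested genes higher and 26.1% lower. CD74, 1 of the 7, met the filter only through HCC827. The median difference of all 10 genes was 0.53, against 0.002 for all 18244 genes without a filter.

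PSMB9 replaces a catalytic subunit of the standard proteasome. In arrays labelled gefitinib and control it stood at 8.75 and 8.87 in HCC827 3D and at 10.10 and 10.08 in HCC827 2D, against 7.81 and 7.72 in A549 3D and 8.56 and 8.21 in A549 2D. The 4 HCC827 arrays were all above the 4 A549 arrays, and within each line both 2D arrays were above both 3D arrays. The line difference was 1.38 ± 0.09 (adjusted p = 0.00114).

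PSMB8, its partner subunit, stood at 10.12 and 10.71 in HCC827 3D and at 11.17 and 10.92 in HCC827 2D, against 9.30 and 9.01 in A549 3D and 9.96 and 9.86 in A549 2D (gefitinib, then control, here and below). The lowest HCC827 array, 3D gefitinib, was above the highest A549 array by a small margin. The difference was 1.20 ± 0.17 (adjusted p = 0.00669).

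TAP2 forms the peptide channel with TAP1. Its signal was 9.61 and 9.91 in HCC827 3D and 10.32 and 9.95 in HCC827 2D, against 8.47 and 8.32 in A549 3D and 8.50 and 8.72 in A549 2D. The lines did not overlap, and the difference was 1.44 ± 0.15 (adjusted p = 0.00327). TAP1 was 8.85 and 9.13 in HCC827 3D and 9.20 and 9.85 in HCC827 2D, against 8.75 and 8.82 in A549 3D and 8.93 and 8.82 in A549 2D. Here the lines overlapped, since the HCC827 3D gefitinib array was below the A549 2D gefitinib array, and the difference was 0.43 ± 0.11 (adjusted p = 0.0308).

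HLA-F, which natural killer cells can recognise, stood at 8.82 and 9.39 in HCC827 3D and at 9.11 and 9.19 in HCC827 2D, against 7.72 and 7.84 in A549 3D and 7.69 and 7.23 in A549 2D. Every HCC827 array was higher, by 1.50 ± 0.15 in the fit (adjusted p = 0.00275). B2M, which class I heavy chains need to reach the surface, stood at 13.90 and 13.71 in HCC827 3D and at 13.38 and 13.89 in HCC827 2D, against 13.24 and 13.14 in A549 3D and 13.23 and 12.74 in A549 2D. These ranges did not overlap either, and the difference was 0.63 ± 0.15 (adjusted p = 0.0308). CD74, the invariant chain, lay close to the array median throughout, at 7.69 and 7.52 in HCC827 3D and 7.50 and 7.65 in HCC827 2D, against 7.02 and 7.01 in A549 3D and 7.27 and 7.32 in A549 2D. It was higher in HCC827 by 0.44 ± 0.08 (adjusted p = 0.015).

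TAPBP (tapasin) and HLA-E, a ligand of the inhibitory receptor CD94/NKG2A, did not pass between the lines. TAPBP stood at 12.26 and 12.35 in HCC827 3D and at 10.63 and 11.29 in HCC827 2D, against 11.93 and 11.90 in A549 3D and 10.60 and 10.48 in A549 2D. Within each culture the HCC827 arrays were the higher ones, and the difference of 0.41 ± 0.13 missed the threshold (adjusted p = 0.0609). HLA-E stood at 10.45 and 10.55 in HCC827 3D and at 10.01 and 10.65 in HCC827 2D, against 10.99 and 10.55 in A549 3D and 10.06 and 10.03 in A549 2D. Its lines overlapped in both cultures, with a difference of 0.01 ± 0.14 (adjusted p = 0.977). Over all 10 genes, 6 had every HCC827 array above every A549 array and 0 the reverse, against 14.4% and 18.2% of tested genes. CD74, which met the filter only through HCC827, is 1 of the 6.

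**Figure D1:**
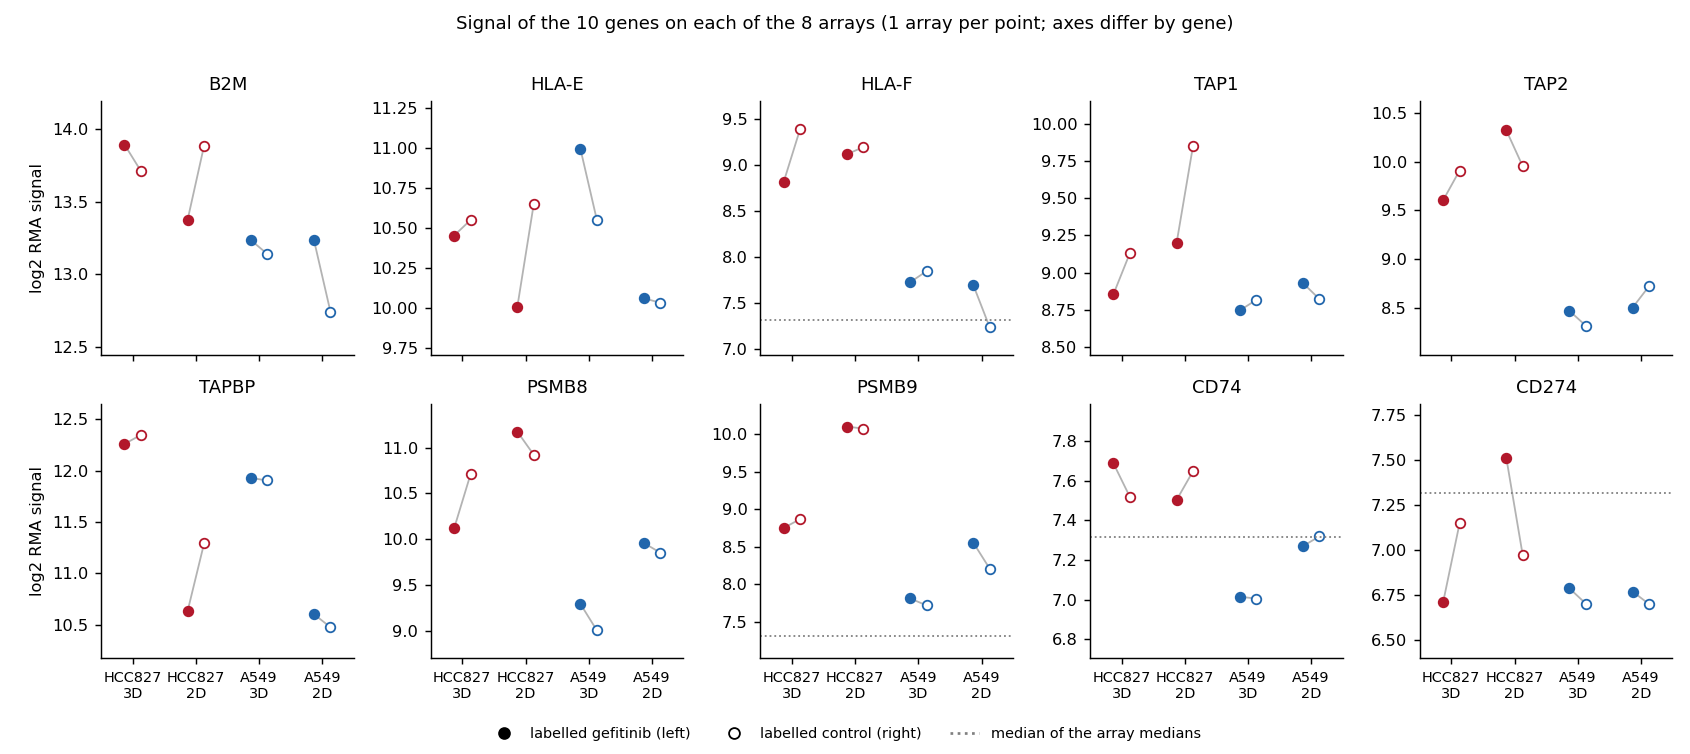
Log2 RMA signal (vertical axis, scaled for each gene) of the 10 genes on the 8 arrays, HCC827 in red and A549 in blue, with a filled point for the array labelled gefitinib and an open point for control. HLA-F, TAP2, PSMB8, PSMB9, B2M and CD74 are higher on all 4 HCC827 arrays, TAPBP separates by culture, and CD274 is above the dotted median on the HCC827 2D array labelled gefitinib only.

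The line difference was then taken within each culture, which holds the RNA kit constant but not RNA quality: in 3D both control genes above had more 3' signal in HCC827, and their part in the line differences was not tested. In 2D the actin signal was -0.10 and -0.09 in HCC827 against -0.14 and -0.05 in A549. In 3D, 5 of the 9 genes passed as higher in HCC827 (against 15% of tested genes) and 0 as lower (21.6%): PSMB9 by 1.05 ± 0.13 (adjusted p = 0.00766), TAP2 by 1.36 ± 0.22 (0.0132), HLA-F by 1.32 ± 0.21 (0.0134), PSMB8 by 1.26 ± 0.24 (0.0202) and CD74 by 0.59 ± 0.12 (0.0225). In 2D, 5 passed as higher (13.8%) and 0 as lower (15%): PSMB9 by 1.71 ± 0.13 (adjusted p = 0.00327), HLA-F by 1.69 ± 0.21 (0.00921), TAP2 by 1.52 ± 0.22 (0.0127), PSMB8 by 1.14 ± 0.24 (0.0315) and TAP1 by 0.65 ± 0.15 (0.0401). PSMB9, TAP2, HLA-F and PSMB8 therefore passed in both, and CD74, which passed in 3D only, met the filter only through HCC827. B2M was 0.62 ± 0.22 in 3D and 0.64 ± 0.22 in 2D and passed in neither (adjusted p = 0.0941 and 0.097).

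**Figure D2:**
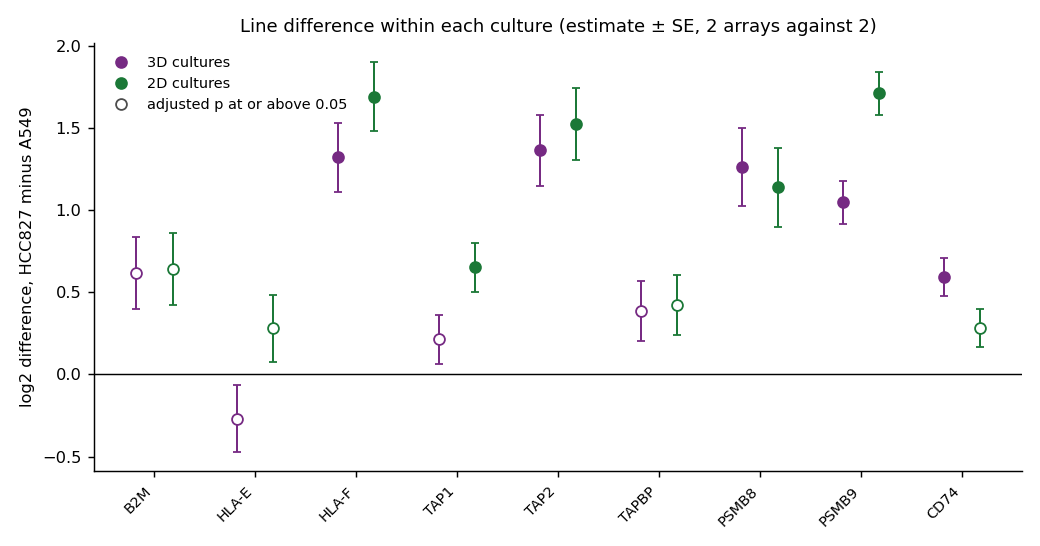
Log2 difference HCC827 minus A549 (vertical axis) of the 9 tested genes in 3D (purple, left) and 2D (green, right), with the SE of the limma fit as bars and filled points where the adjusted p was under 0.05. HLA-F, TAP2, PSMB8 and PSMB9 are filled in both cultures and lie above 1, and HLA-E is open on either side of 0.

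Leaving out any 1 of the 4 A549 arrays (3D gefitinib, 3D control, 2D gefitinib or 2D control) leaves HCC827 alone to give the spread. The line count was then 3 of 9, HLA-F, TAP2 and PSMB9, all higher, against 6.46% to 6.7% of all tested genes higher. Without both HCC827 2D arrays, 8 passed, against 69% of all tested genes: TAPBP joined as higher (0.39, adjusted p = 0.00289), HLA-E passed as lower in HCC827 (-0.27, 0.0432) and TAP1 was lost (0.21, 0.0544).

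Other probe sets of the same genes pointed the same way. All tested probe sets of the 8 genes with at least 2 had a line difference above 0, as 80.7% of 7062 such genes had a single sign. HLA-E had 6 probe sets, of which 5 passed as higher in HCC827, between 0.44 and 0.55, and the brightest, used above, did not. For TAPBP 4 of 5 passed, all but the brightest. B2M had 4 of 8 passing; 2 of its probe sets, both not passing, carried identical values and count as 1 measurement. Probe sets of HLA-E and HLA-F marked x or s may also bind related class I transcripts, so their values are uncertain as to the gene.

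The rest of the class I pathway was read from a list of other genes, of which 20 were tested. Between the lines 10 were higher in HCC827 and 2 lower, against the 22% and 26.1% of all tested genes, and 1 of the 10, ERAP2, was below the array median on all 4 A549 arrays, so that it entered the test through HCC827 alone. Over all 22 measured genes of the list the median was 0.30, against 0.002 for all genes without a filter. The classical heavy chains HLA-B (2.54 ± 0.09, adjusted p = 3.15e-04) and HLA-C (1.22 ± 0.12, 0.0029) were higher, as were the tapasin homologue TAPBPL (1.25 ± 0.16, 0.00561) and the proteasome activator subunit PSME2 (1.04 ± 0.10, 0.0025). The class I transactivator NLRC5 (0.37 ± 0.07, adjusted p = 0.014) and the interferon-regulated factor IRF1 (0.88 ± 0.19, 0.0205) were higher too. The HLA-B and HLA-C probe sets are marked x and may also bind related class I transcripts. Their values, here and for culture, are uncertain as to the gene. The 2 lower genes, named after their values were seen, were the chaperone CANX (-0.71 ± 0.11, adjusted p = 0.00917) and the disulfide isomerase PDIA3 (-0.63 ± 0.12, 0.0141). PSMB10, the remaining immunoproteasome subunit, did not pass (0.27 ± 0.13, adjusted p = 0.147). Of 14 subunits of the constitutive proteasome core, 1 was higher and 3 lower in HCC827, against the same 22% and 26.1%, with a median of -0.20 against -0.03 for all tested genes. Of 21 measured interferon-gamma signalling genes, a list that shares NLRC5 and IRF1, 13 passed the filter, and the median of all 21 was 0.37, against 0.002 for all genes without a filter. The adhesion molecule ICAM1 was higher in HCC827 (3.12 ± 0.09, adjusted p = 2.07e-04). The receptor chain IFNGR1, named after its values were seen, was lower (-0.99 ± 0.09, adjusted p = 0.00202). GBP1, a guanylate-binding protein, stood at 9.56 and 9.01 in HCC827 3D and at 10.51 and 11.68 in HCC827 2D, against 6.78 and 6.63 in A549 3D and 7.13 and 6.84 in A549 2D. It and IDO1 were below the array median on all 4 A549 arrays and entered the test through HCC827 alone, so no count is given for this list.

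CD74 works with class II molecules, and of 17 tested genes of that pathway 4 were higher and 7 lower in HCC827. All tested genes had 22% higher and 26.1% lower, and HLA-DRB1 and HLA-DRB5, 2 of the 4, were below the array median on all A549 arrays. HLA-DMB (-3.71 ± 0.15, adjusted p = 3.83e-04), which helps to load class II peptides, the intramembrane protease SPPL2A (-1.81 ± 0.13, 0.0013), which cleaves a fragment of CD74, and the lysosomal protease CTSL (-1.76 ± 0.09, 5.94e-04) were lower. The thiol reductase IFI30 was higher (1.66 ± 0.10, adjusted p = 8.16e-04). The class II transactivator CIITA did not pass (-0.05 ± 0.08, adjusted p = 0.661).

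The 3D and 2D cultures were compared next. TAPBP stood 2.57-fold higher in 3D as the mean of both lines (log2 1.36 ± 0.13, adjusted p = 0.005), and PSMB9 (-0.95 ± 0.09, 0.00507) and PSMB8 (-0.69 ± 0.17, 0.0312) were lower. So 1 of 9 genes was higher in 3D and 2 were lower, against 30.4% and 17.1% of all tested genes. TAPBP was the 1 gene of 10 whose 4 3D arrays all lay above its 4 2D arrays and 0 had the reverse, against 19.1% and 10.1% of tested genes. For all 10 genes the median was -0.14, against 0.07 for all genes without a filter. The actin signal given above separated the same arrays, and its part in these differences was not tested. RNA preparation and culture cannot be told apart. The actin signal differed between 3D and 2D by 2.59 in HCC827 and by 1.80 in A549.

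In HCC827 TAPBP was higher in 3D by 1.34 ± 0.18 (adjusted p = 0.0142) and PSMB9 was lower (-1.28 ± 0.13, 0.011), so 1 gene was higher and 1 lower, against 19.7% and 13.7% of tested genes. In A549 the same genes passed, TAPBP at 1.38 ± 0.18 (adjusted p = 0.0207) and PSMB9 at -0.62 ± 0.13 (0.0403), against 16.3% and 6.01%. As an interaction, limma called 0 of the 9 genes and 0% of all 11926, with 1696 at an unadjusted p under 0.05. PSMB9 was the 1 gene of the 9 among those (-0.66 ± 0.18, unadjusted p = 0.0197, adjusted p = 0.257). This rests on its brightest probe set. The other tested PSMB9 probe set differed between 3D and 2D by -0.11 in HCC827 and by -0.18 in A549. Every culture call, of either line or of their mean, was lost when any 1 A549 array (3D gefitinib, 3D control, 2D gefitinib or 2D control) was left out. For culture these fits called 0% of all 11926 tested genes, so the loss is not particular to these genes. TAPBP then lay at 1.33 to 1.38 for the mean of lines, with adjusted p between 0.08 and 0.0872, and PSMB9 at -1.01 to -0.88. Leaving out an HCC827 array moves the spread to A549, and more genes passed for the mean of lines: 7 without 3D control or without 2D control, and 6 without either array labelled gefitinib, in fits that called 71% to 74.1% of all tested genes. In A549 6 passed without any 1 HCC827 array, against 64.1% of all tested genes. In HCC827 7 passed without either control array (64.7%) and 3 without either array labelled gefitinib (58.3%), TAP1 joining in each. As an interaction, 4 passed without any 1 HCC827 array, PSMB9 among them each time, against 30.4% to 38% of all tested genes.

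The single pairs of arrays show where PSMB8 varied. PSMB8 differed between 3D and 2D by -1.05 in the HCC827 gefitinib arrays and by -0.21 in the HCC827 control arrays, against -0.67 and -0.85 in A549. All 4 pairs were below 0, and the HCC827 pairs were the farthest apart. TAP1 differed by -0.35 and -0.72 in HCC827 and by -0.18 and -0.01 in A549. Its culture difference was -0.53 ± 0.15 in HCC827 and did not pass (adjusted p = 0.0573). HLA-E in A549 was 0.72 ± 0.20 and did not pass (adjusted p = 0.0712).

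**Figure D3:**
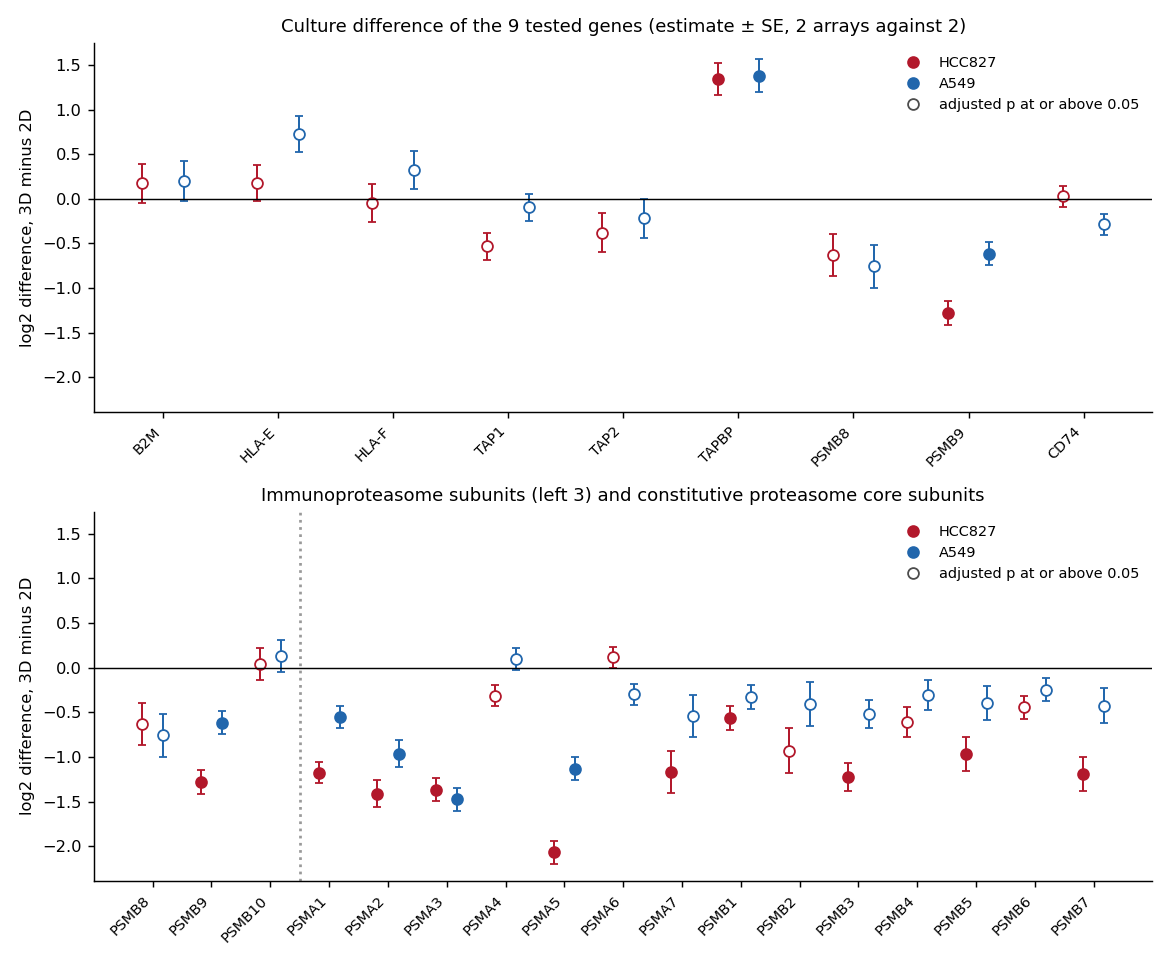
Log2 difference 3D minus 2D (vertical axis) in HCC827 (red, left) and A549 (blue, right), with the SE of the limma fit and filled points where the adjusted p was under 0.05, for the 9 tested genes (top) and for proteasome subunits (bottom). TAPBP is the highest gene of the top panel at 1.34 and 1.38, and nearly all constitutive subunits lie below 0.

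The culture differences of several genes changed sign with the probe set. TAPBP had 5 probe sets: the brightest (1.36) and another (0.44) passed as higher in 3D, 2 passed as lower (-0.94 and -0.40) and 1 did not pass (-0.28). The mean of the TAPBP probe sets gave 0.04 (adjusted p = 0.81). Of the 7062 genes with at least 2 tested probe sets, 10.7% had probe sets passing in both directions for culture, against 0.637% for the line; TAPBP was the 1 gene of 8 here. For HLA-E the brightest probe set was at 0.45 and the other 5 were below 0, of which 3 passed as lower. For B2M, 2 of 8 passed as lower, at -0.79 and -0.73, and the brightest was at 0.19. PSMB8, PSMB9, TAP1 and TAP2, 4 of the 8 genes, had a single sign, as had 58.6% of the 7062 genes. Their tested probe sets were all below 0 for 3D against 2D. The second probe set of PSMB8 was at -1.57. That of PSMB9 was at -0.14 and did not pass (limma adjusted p = 0.263), nor did it in HCC827 (0.564) or A549 (0.36). The PSMB9 culture calls therefore rest on 1 probe set. The place of each probe set along its transcript was not analysed here.

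**Figure D4:**
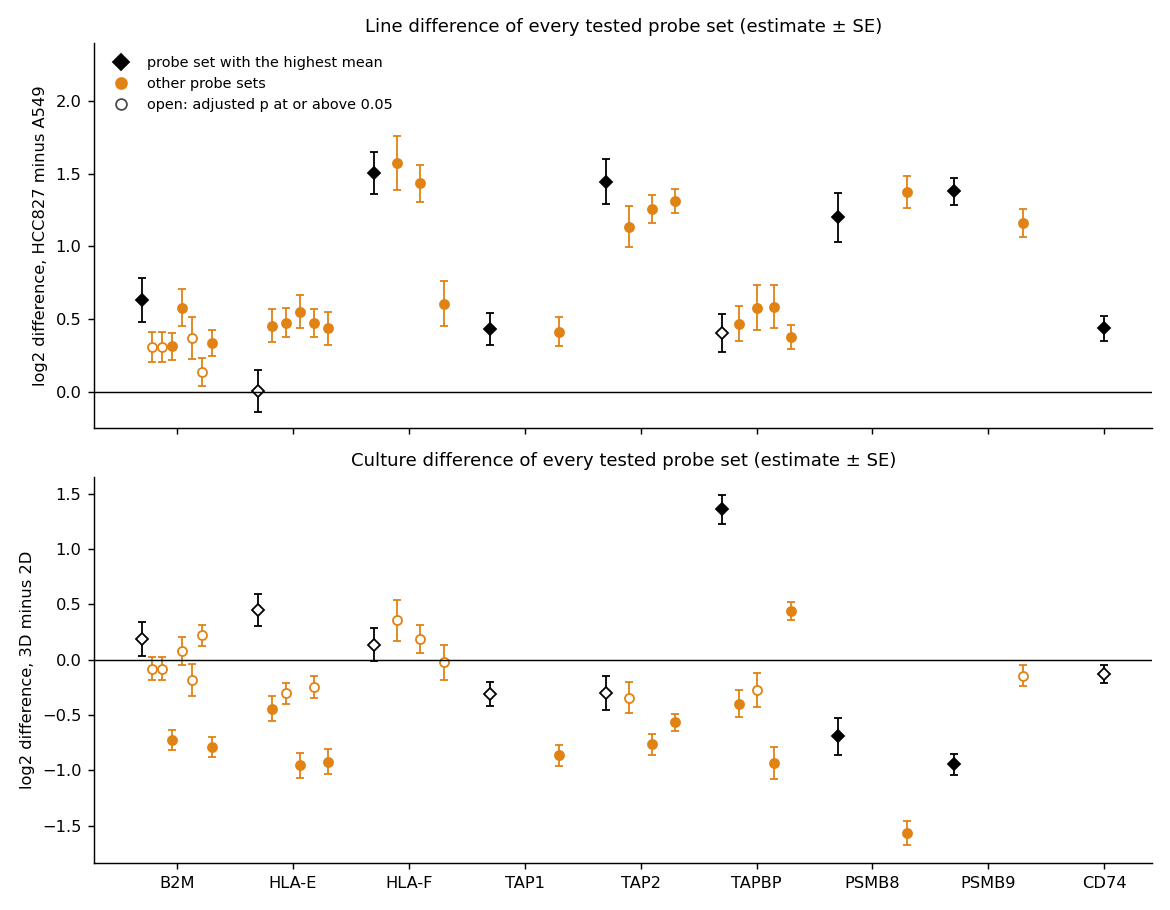
Log2 difference (vertical axis) of every tested probe set of the 9 genes, HCC827 minus A549 (top) and 3D minus 2D as the mean of lines (bottom), with SE; diamonds mark the brightest probe set and open symbols an adjusted p of at least 0.05. All points of the top panel are above 0, whereas TAPBP, HLA-E, B2M and HLA-F lie on both sides of 0 in the bottom panel.

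The immunoproteasome subunits were set beside the subunits that they accompany or replace. In 3D, 12 of the 14 constitutive core subunits were lower and 0 higher, against 17.1% and 30.4% of all tested genes, and their median was -0.74 against 0.12. In HCC827 9 were lower (13.7% of all tested genes) and in A549 4 (6.01%). PSMB5 (-0.68 ± 0.13, adjusted p = 0.0188), PSMB6 (-0.35 ± 0.09, 0.0367) and PSMB7 (-0.81 ± 0.14, 0.0133), the standard catalytic subunits, were among them. PSMB10 did not pass (0.08 ± 0.13, adjusted p = 0.619). The other class I genes were split, with 6 higher and 5 lower of 20, against 30.4% and 17.1%. PSME1, a proteasome activator subunit (-0.86 ± 0.10, adjusted p = 0.00669), and the chaperone CALR (-0.75 ± 0.17, 0.0267) were lower, as was HLA-B (-0.43 ± 0.09, 0.0206), and TAPBPL was higher (0.81 ± 0.16, 0.0199).

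The third comparison asked what gefitinib does in each line. Limma called 0 of the 9 genes and 0% of 11926 in HCC827 (mean of cultures, as labelled; 487 at an unadjusted p under 0.05) and 0 of 9 and 0% in A549 (86). For the difference between the lines it called 0 of 9 and 0% as well (348 unadjusted). The HCC827 pairs ran opposite ways in DUSP6 and ETV5, so their mean offsets such differences and the spread of the fit contains them. These counts of 0 therefore cannot show that gefitinib changed nothing. TAP1 in HCC827 was the 1 gene of the 9 at an unadjusted p under 0.05 (-0.46 ± 0.15, unadjusted p = 0.0327, adjusted p = 0.926). Both arrays labelled gefitinib were below their controls for TAP1 in HCC827, although the pairs ran opposite ways in DUSP6.

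Array by array, 0 of the 10 genes differed by more than log2 1 in any pair, against 3.95% of tested genes in HCC827 3D, 3.97% in HCC827 2D, 0.00839% in A549 3D and 0.0252% in A549 2D. In HCC827 3D, 8 of 10 differences were below 0, with PSMB8 at -0.59, HLA-F at -0.57, CD274 at -0.44 and TAP2 at -0.30, while B2M (0.18) and CD74 (0.17) were above 0. The median of the 9 tested genes in that pair was -0.12, against -0.11 for all tested genes. In the fit without the HCC827 2D arrays, whose spread comes from A549 alone, PSMB8 (adjusted p = 0.00658) and HLA-F (0.0367) passed as lower with gefitinib, 2 of 9 genes against 20.4% of all tested genes lower in that fit. Leaving out only HCC827 2D gefitinib or only HCC827 2D control leaves the same 3D pair and A549 spread. PSMB8 and HLA-F then passed by construction, against 20.4% of all tested genes lower, and this adds no further support.

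In HCC827 2D, as labelled, TAPBP differed by -0.66, TAP1 by -0.65, HLA-E by -0.64 and B2M by -0.51, and CD274 by 0.54, TAP2 by 0.37 and PSMB8 by 0.25. TAP2, PSMB8, PSMB9 and CD274 thus had opposite signs in the HCC827 pairs, as did B2M and CD74. TAPBP, TAP1, HLA-E and HLA-F had the same sign in both. These are signs of the brightest probe sets, and some changed with the probe set. Another HLA-F probe set stood at 8.87 and 9.45 in HCC827 3D but at 9.14 and 8.81 in 2D (gefitinib, then control). Another of TAPBP stood at 7.75 and 7.74 in 3D but at 8.39 and 9.14 in 2D. Another of B2M was lower with gefitinib in both, at 12.15 and 12.45 in 3D and 13.11 and 13.61 in 2D. In the fit without HCC827 3D gefitinib or without HCC827 3D control, which rests on the 2D pair and the A549 spread, HLA-E, TAP1 and TAPBP passed as lower in the array labelled gefitinib, against 12.4% to 12.5% of all tested genes lower. For the difference between the lines, 4 genes then passed as lower (B2M, HLA-E, TAP1 and TAPBP), against 12.3%. In A549 the differences ran between -0.12 and 0.44 in 3D and between -0.22 and 0.49 in 2D, and 8 of 10 were above 0 in each culture.

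**Figure D5:**
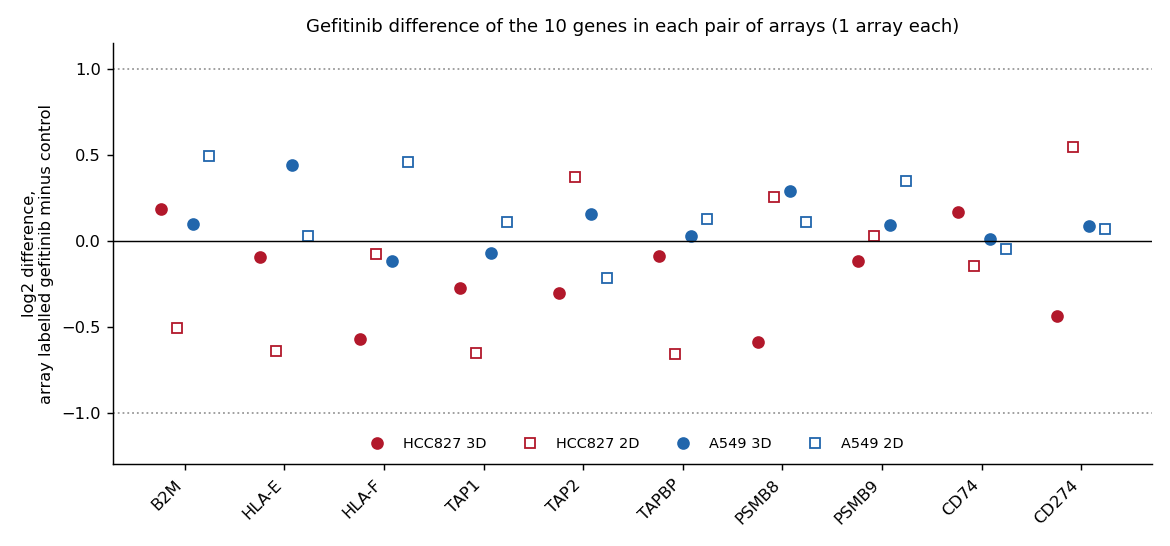
Log2 difference of the array labelled gefitinib minus the control array (vertical axis) for the 10 genes in HCC827 (red) and A549 (blue), 3D as filled circles and 2D as open squares, 1 array each, with dotted lines at 1 and -1. All points lie between the dotted lines, and CD274 has opposite signs in the HCC827 pairs.

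CD274 lay below the array median on 7 of 8 arrays, so its values are low signals. It stood at 6.71 and 7.15 in HCC827 3D and at 7.51 and 6.97 in HCC827 2D, against 6.79 and 6.70 in A549 3D and 6.77 and 6.70 in A549 2D. The highest array was HCC827 2D labelled gefitinib and the next HCC827 3D control, the same arrays in which DUSP6 was the higher one of its pair. The 4 A549 arrays lay close together, and HCC827 3D gefitinib lay among them. Of its other 3 probe sets, 2 had the same order within the HCC827 pairs: 6.63 and 6.93 in 3D and 7.14 and 6.72 in 2D for 1, and 6.28 and 6.55 in 3D and 7.27 and 6.52 in 2D for another. The remaining probe set had 6.51 and 6.32 in 3D and 6.23 and 6.05 in 2D. In a fit without the filter on low values, the line difference of CD274 was 0.35 ± 0.17 (adjusted p = 0.183) and its culture difference -0.15 ± 0.17 (0.523).

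The genes most like CD274 over the 8 arrays, among 4469 tested genes with an SD of at least 0.5, were EMP1 (r = 0.96), ZNF273 (0.955), NUP155 (0.951), EREG (0.949) and STIL (0.949). EREG, an EGFR ligand, stood at 8.36 and 9.84 in HCC827 3D and at 10.59 and 9.70 in HCC827 2D, against 8.60 and 8.78 in A549 3D and 8.45 and 8.73 in A549 2D. For the mean of the 8 class I genes they were MEX3D (r = 0.997), ITGB6 (0.994), MIER1 (0.994), VOPP1 (0.993) and KCNMB4 (0.992). For CD74 they were TSPAN12 (r = 0.984), OMA1 (0.982), PIK3R4 (0.97), PLS3 (0.957) and PPM1K (0.957). The arrays fall into 2 lines and share their preparation within a culture, so any gene that separates the lines correlates with another. CD274 did not separate the lines. The genes most like it shared its order within the HCC827 pairs, higher in 3D control and in 2D labelled gefitinib. All these values are descriptions with no test.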

How the data were processed

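Expression was measured on 8 Affymetrix 3' arrays, 1 for each combination of line, culture and treatment, grouped by their labels. The deposited values are log2 signals from robust multi-array averaging (RMA, R 3.2.1), per the submitters' processing notes; no genome build was named in those notes. Of 49495 probe sets, 45278 had 1 gene symbol, 1333 several and 2782 none, and 102 were controls; 45208 matched RefSeq (GRCh38.p14). Each gene took its probe set with the highest mean. Genes above the array median on at least 2 arrays were tested with limma 3.58.1 in R 4.3.3 (terms for line, culture, treatment, line by culture and line by treatment, trended eBayes, two-sided). The fit has 6 coefficients, 2 residual degrees of freedom and 2.36 from the prior, and Benjamini-Hochberg adjustment over 11926 genes with a threshold of 0.05. The labels do not say that arrays came from separate cultures, and the number of arrays limits the precision. With 1 array per condition, the p-values set each difference against a spread moderated over all genes. That spread is how far the gefitinib difference shifts between cultures of a line, not replicate scatter.

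Probe sets were also fitted one by one. RNA control probe sets were compared by exact permutation (SciPy 1.17.1, Python 3.11.15). Figures used matplotlib 3.10.9. The fit was tested on simulated data. The members and gene lists were chosen with earlier results of these data known. The text names all 10 genes, up to 4 genes of each other list with the greatest differences past the threshold, and DUSP6 and ETV5. It also names preselected pathway genes (PSMB5, PSMB6, PSMB7, PSMB10, NLRC5, IRF1, CIITA, HLA-B, HLA-C) and the 5 genes most correlated with each profile. Some immune cell markers are named for the cell content. CANX, PDIA3 and IFNGR1 were named after their values were seen. Some genes of these lists are not reported here. Alternatives were other models, probe set choices, normalizations, variance priors, no filter, and leaving out arrays.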

Additional observations from a re-analysis of the deposited data

Results flagged for a closer look

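HLA-E in the HCC827 2D array labelled control (10.65) lay apart from the other 2D arrays, of which the nearest was at 10.06 and the lowest at 10.01, with a gap of 0.915 of the range against a critical value of 0.829. Among like samples chance sets apart about 1 in 20 groups, and 40 were examined. These groups mix treatments and either lines or cultures, so that rate need not hold here. The value is that of the brightest probe set. In the other HLA-E probe sets both HCC827 2D arrays lay above both A549 2D arrays. In 1 of them they stood at 10.65 and 11.07 against 10.03 and 9.88 (gefitinib, then control). HLA-E differed between gefitinib and control by -0.10 and -0.64 in the HCC827 pairs (3D, then 2D as labelled), against 0.44 and 0.03 in A549. The difference between the lines, -0.60, did not pass in limma (adjusted p = 0.997). TAPBP differed by -0.09 and -0.66 in the HCC827 pairs, against 0.02 and 0.13 in A549, and the difference of -0.45 did not pass either (adjusted p = 0.997).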

How the results depend on the processing

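Over 1272 alternative values, 954 kept direction and call, 131 newly passed, 59 no longer passed, 96 moved and 32 reversed. The line count of 7 ranged from 3 to 8 when 1 array was left out. It was 3 without any 1 A549 array, in fits that called at most 15.9% of all tested genes. It was 8 without any 1 HCC827 array, in fits that called 70.5% to 72% of all tested genes. The culture count for the mean of lines, 3, became 5 with the mean of a gene's probe sets and 7 with the probe set of largest variance. It was 0 to 7 without 1 array, in fits that called 0% to 74.1% of all tested genes. The culture count for HCC827, 2, became 5, 7 and 0 to 7 under the same changes, the last with 0% to 64.7% of all tested genes called. The culture count for A549, 2, became 1, 5 and 0 to 6, the last with 0% to 64.1% of all tested genes called. It was 4 without a treatment term, 1 without the filter and 6 without both HCC827 2D arrays (64.1%). Shares of all genes for the settings that keep all arrays are not given here. The line by culture count of 0 ranged from 0 to 4 without 1 array, in fits that called 0% to 38% of all tested genes. The gefitinib counts of 0 became 2 in HCC827 and 2 between the lines without both HCC827 2D arrays, against 27.2% and 20.5% of all tested genes. Without 1 array they ranged from 0 to 3 (0% to 27.2% of all tested genes) and from 0 to 4 (0% to 20.5%). The A549 gefitinib count was 0 in all alternatives run. Counts of 0 for culture came from fits without any 1 A549 array, in which the spread is that of HCC827 alone. Those fits called 0% of all tested genes for culture.

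The line difference of HLA-E reversed to -0.27 without both HCC827 2D arrays. For culture (mean of lines, HCC827, A549), the probe set of largest variance gave -0.79, -1.06 and -0.52 for B2M and -0.96, -1.20 and -0.71 for HLA-E. The mean of probe sets gave -0.40 (mean of lines) and -0.74 (HCC827) for HLA-E. Single probe sets, an alternative chosen after seeing the data, gave -0.73 and -1.03 for B2M. They gave -0.92 and -1.29, or -0.44 and -0.85, for HLA-E, and in HCC827 alone -0.73 and -0.54. For TAPBP they gave -0.94, -1.02 and -0.85, or -0.28, -0.30 and -0.25, or -0.40, -0.45 and -0.34. The causes were not tested. The mean of probe sets left HLA-F and CD74 below the filter. Cyclic loess shifted the median of all tested genes for culture to 0.16, against 0.12, and kept every line and culture call. No paired analysis was possible because each condition has 1 array, so the replicate numbers pair nothing. Signal near the array median limits CD74 and CD274.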

Other observations

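Of the other checkpoint and natural killer ligands, 12 were tested. In HCC827 4 were higher and 4 lower than in A549, against 22% and 26.1% of all tested genes, with CD47, the "do not eat me" signal to macrophages, at 1.86, the T cell ligand HHLA2 at 1.65 and the NKG2D ligand MICB at 1.48, and NECTIN2, a ligand of DNAM-1, at -1.53. HHLA2 was below the array median on all 4 A549 arrays and entered the test through HCC827 alone. In 3D 5 were higher and 2 lower than in 2D, against 30.4% and 17.1%, with CD47 at -0.68, MICB at -0.59, TNFRSF14 at 0.80 and CD276 (B7-H3) at 0.61. Of 5 tested genes of a list on CD274 stability and the CD74 ligand MIF, 0 were higher and 2 lower in HCC827, among them the hyaluronan receptor CD44 (-1.52), which partners with CD74. Limma called 0 of the 5 for culture.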
